A study of Mus musculus with 8 samples.

Results

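The 44 genes described here are ligands and receptors that steer growing axons, with the reelin adaptor Dab1. They were chosen by gene symbol from the 37558 Ensembl genes of a table of read counts over 8 libraries of mouse P19 cells, and all 44 were matched. P19 is an embryonal carcinoma line, and each library came from 1 culture infected with 1 lentivirus. The viruses carried MyoD, the muscle bHLH transcription factor; NeuroD2, a neuronal bHLH factor; a chimera in which the bHLH region of MyoD was exchanged for that of NeuroD2; and the mutants named WC and WCS, whose changes the labels do not define. GFP virus served as the control. The chimera and WCS were each measured at a multiplicity of infection (MOI) labelled 100 and in a second culture with no MOI label, and the MOI of the other 4 cultures is not given either. All cultures shared the treatment protocol, with polybrene at 8 µg/ml during infection, fresh medium after 24 h and a neuronal medium, Neurobasal with B27, from 48 h. The labels do not name the promoter that drove the transgenes. No group had a second library at its own MOI label.

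Guidance cues act through receptors on the growth cone. Slit proteins repel axons through Robo receptors. Netrins attract through Dcc and repel through Unc5 receptors. Secreted class 3 semaphorins signal through complexes of a neuropilin, which binds the ligand, and a plexin, which carries the signal inward, while transmembrane class 6 semaphorins bind plexins directly. Ephrins and Eph receptors signal between touching cells, and reelin, a secreted glycoprotein, acts on migrating neurons through the adaptor Dab1.

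The libraries held 26410500 to 43984066 counts, so that a floor of 3 counts equals 0.073 to 0.115 CPM, the counts scaled to a common library total with TMM factors. In all, 15547 genes reached 1 CPM somewhere and are called measured, the 44 guidance genes among them. Myod1, which can come from the virus or the cell, stood at 296 CPM in MyoD, 857 CPM in WCS at MOI 100, 77.3 CPM in WCS, 106 CPM in WC, 555 CPM in chimera at MOI 100 and 116 CPM in chimera, and at or under 0.804 CPM in NeuroD2 and GFP. Neurod2 stood at 180 CPM in NeuroD2, 130 CPM in WCS at MOI 100 and 73.3 CPM in chimera at MOI 100, and between 0 and 15.8 CPM in the other 5. The summed CPM of 8 neuron markers, among them Tubb3 and Dcx, were 249 in MyoD, 3005 in NeuroD2, 4373 in WCS at MOI 100, 1898 in WCS, 1712 in WC, 2342 in chimera at MOI 100, 695 in chimera and 349 in GFP. The sums of 8 skeletal muscle markers were 9843 in MyoD, 1529 in chimera at MOI 100 and 939 in chimera, against 17.9 to 62.6 in the other 5 libraries. The sums of 8 embryonal carcinoma markers were 391 to 1153 in the 7 other libraries, against 2664 in GFP, where Pou5f1 was at 1227 CPM. Zfp42, also on that list, was at or under 0.0377 CPM in every library. Sox2 on the same list did not follow the sum. It was at 124 CPM in GFP, 131 CPM in NeuroD2, 126 CPM in WCS at MOI 100, 205 CPM in WCS, 181 CPM in WC and 158 CPM in chimera. In chimera at MOI 100 it was at 108 CPM and in MyoD at 95.7 CPM. The sums of 5 neural progenitor markers were 528 in MyoD, 306 in NeuroD2, 370.0 in WCS at MOI 100, 447 in WCS, 415 in WC, 499 in chimera at MOI 100, 399 in chimera and 128 in GFP. The MyoD sum was mostly Nes, at 474 CPM against 120 CPM in NeuroD2. Pax6, Hes5, Olig2 and Fabp7 were at 45.6, 6.57, 0.192 and 1.65 CPM in MyoD. In NeuroD2 these were at 77.5, 46.1, 48.9 and 13.7 CPM. Endothelial markers summed to 1.49 to 3.89 CPM and fibroblast markers to 32.5 to 119 CPM over the 8 libraries. The sums of 5 glial markers, 41.5 to 103 CPM, were mostly Mbp, and Gfap, Sox10 and Aqp4 were each under 1 CPM in every library. The small RNA gene Rn7s6 split the libraries otherwise, with 12.998 to 16.3 CPM in MyoD, WCS, WC and GFP and 0.565 to 1.28 CPM in NeuroD2, chimera and both MOI 100 libraries. In a whole culture, fewer cells of a type and less of an RNA per cell cannot be told apart. The part of these cell type markers and of Rn7s6 in the guidance gene values below was not tested.

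The WCS library at MOI 100 had the highest level of 14 of the 44 genes and the chimera library at MOI 100 of 7, against 3 in GFP. MyoD had the lowest level of 17 genes and GFP of 16. The same counts were not made over all measured genes, so this split may not be particular to guidance genes. For pairs of single libraries a size rule was used, a difference of 4-fold or more after adding 0.5 CPM to both levels, where the higher level reached 5 CPM. Over 13 such pairs, 24 of the 44 genes met it at least 1 time. How many of all measured genes met it at least 1 time was not counted, so the 24 have no background. Bracketed intervals after a fold are exact binomial 95% intervals on the 2 counts, and they cover counting error only, since each group has 1 library. PCR reads are not independent molecules, so the intervals can be too narrow even for counting error. No single-library pair has a test.

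**Figure D1:**
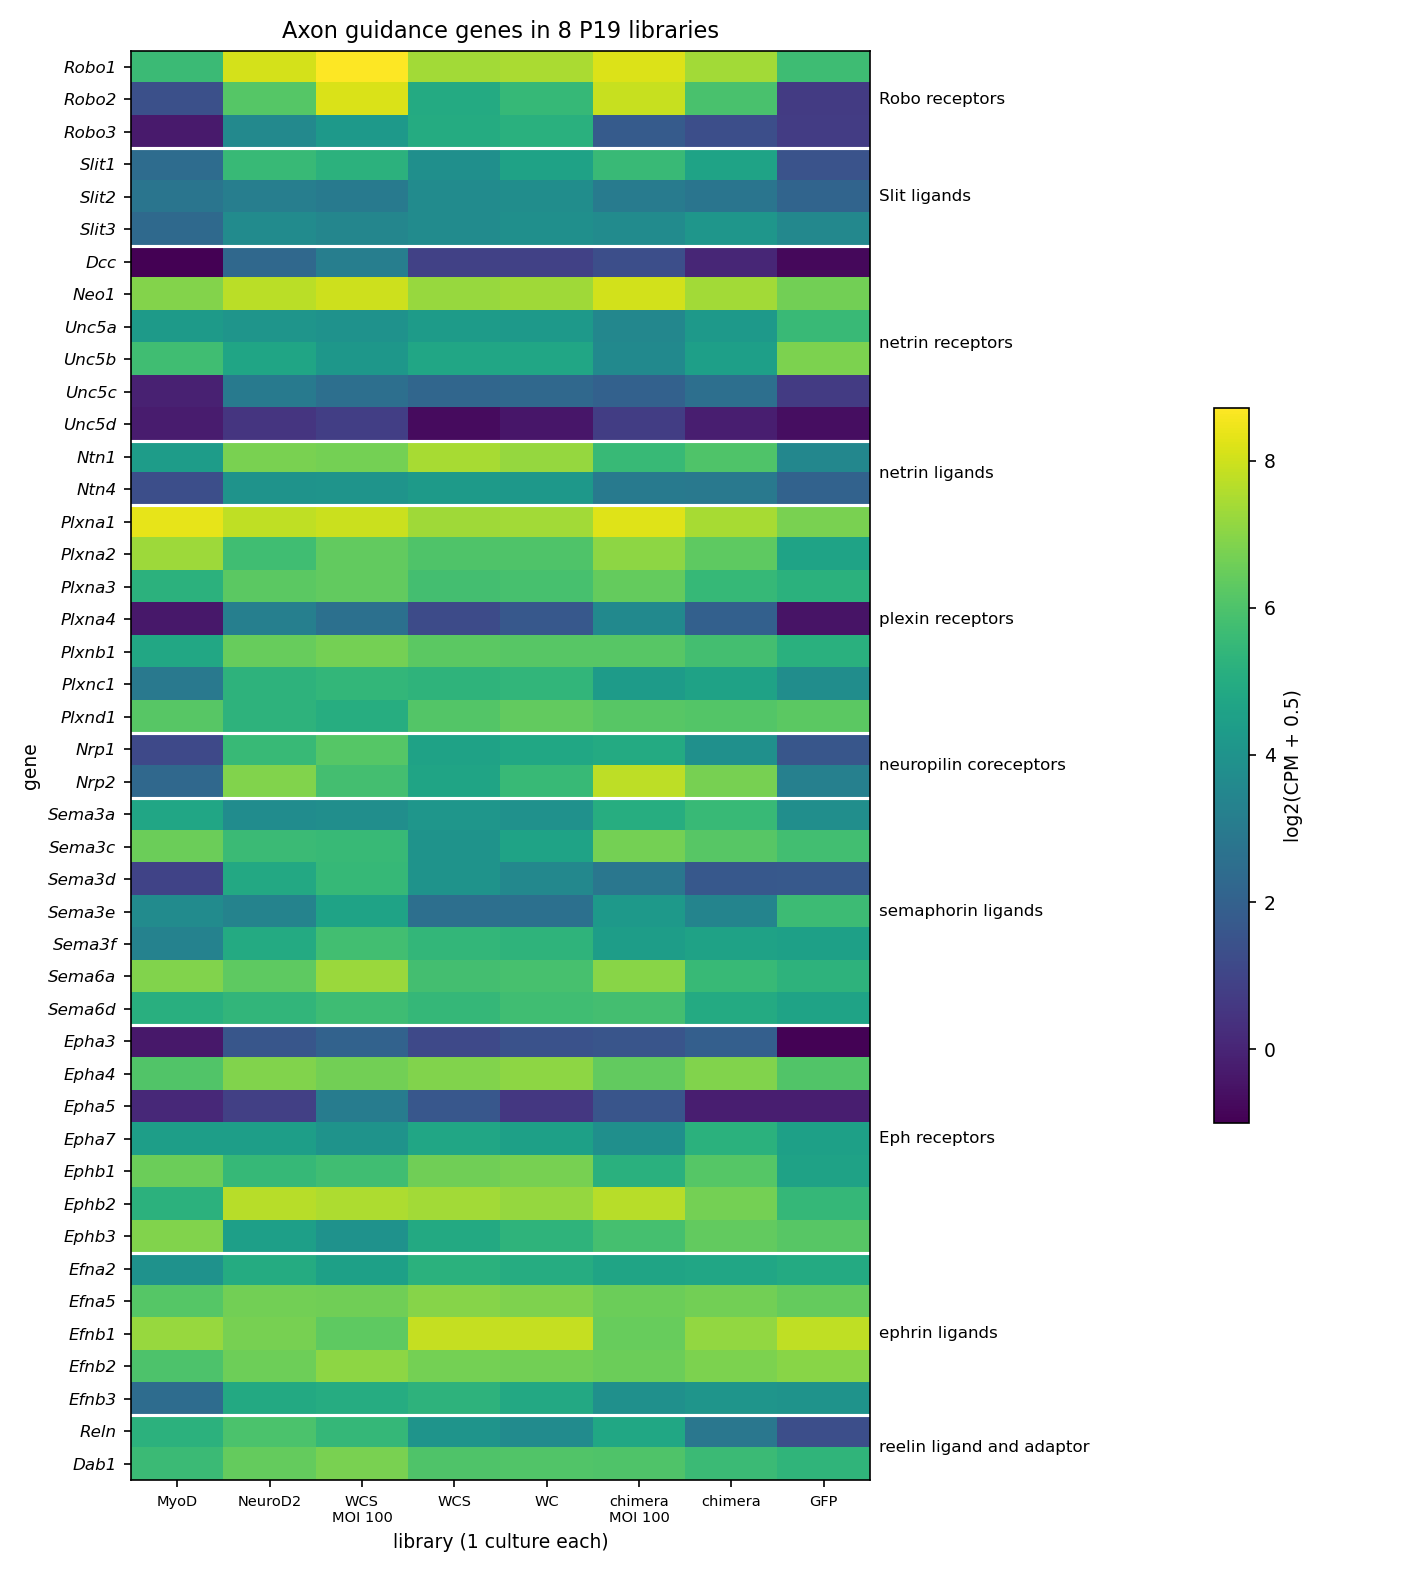
Levels of the 44 guidance genes, as log2(CPM + 0.5), with genes grouped by role down the page and the 8 libraries, 1 culture each, across it. Yellow is high and dark violet is low. Robo2, Nrp1 and Plxna4 are dark in MyoD and GFP and lighter in the 6 libraries between them, while Unc5b is lightest in GFP.

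The Robo receptors were higher in NeuroD2, WCS and chimera libraries than in GFP, and in MyoD they stayed within 4-fold of GFP. Robo1 (ENSMUSG00000022883), a repulsive Slit receptor, had 48.7 CPM in MyoD, 273 CPM in NeuroD2, 420.5 CPM in WCS at MOI 100, 166 CPM in WCS, 177 CPM in WC, 292 CPM in chimera at MOI 100, 166 CPM in chimera and 51.1 CPM in GFP. The MyoD and GFP libraries were the 2 lowest, and both MOI 100 libraries were above their partners. The Robo1 ratio of NeuroD2 to GFP was 5.34-fold (5.09 to 5.6), and that of WCS at MOI 100 to GFP was 8.22-fold (7.85 to 8.61). Robo2 (ENSMUSG00000052516), its close relative, had 2.11 CPM in MyoD, 71.4 CPM in NeuroD2, 287 CPM in WCS at MOI 100, 30.3 CPM in WCS, 45.2 CPM in WC, 240.0 CPM in chimera at MOI 100, 60.9 CPM in chimera and 1.09 CPM in GFP. The 6 libraries other than MyoD and GFP all lay above 30 CPM, and these 2 under 3 CPM. Robo2 was 65.3-fold (48.6 to 89.8) higher in NeuroD2 than in GFP, 219-fold (164 to 301) higher in chimera at MOI 100 than in GFP, and 263-fold (196 to 360.2) higher in WCS at MOI 100 than in GFP. In MyoD the Robo2 ratio to GFP was 1.93-fold (1.28 to 2.93), short of 4-fold. Robo3 (ENSMUSG00000032128), which lets commissural axons cross the midline, had 0.307 CPM in MyoD, 11.5 CPM in NeuroD2, 17.9 CPM in WCS at MOI 100, 31 CPM in WCS, 35.7 CPM in WC, 2.98 CPM in chimera at MOI 100, 2.0 CPM in chimera and 1.14 CPM in GFP. It did not follow the other Robo genes: WC and WCS were the 2 highest, and the chimera libraries lay near GFP. The Robo3 ratio was 17.9-fold (13.6 to 24) for WC over chimera, 15.5-fold (11.8 to 20.9) for WCS over chimera and 6.01-fold (4.78 to 7.62) for the same pair of constructs at MOI 100. Per kilobase of exon, Robo1 was above Robo2 in all 8 libraries. In WCS at MOI 100 the levels were 25.5 CPM per kilobase for Robo1, 16.9 for Robo2 and 2.62 for Robo3.

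Slit1 (ENSMUSG00000025020), a secreted repellent of the nervous system, had 4.91 CPM in MyoD, 46.3 CPM in NeuroD2, 37.4 CPM in WCS at MOI 100, 13.9 CPM in WCS, 23.5 CPM in WC, 48.1 CPM in chimera at MOI 100, 24.1 CPM in chimera and 2.33 CPM in GFP. It was lowest in GFP, next lowest in MyoD and above 13 CPM in the other 6. Slit1 was 19.8-fold (16.1 to 24.7) higher in NeuroD2 than in GFP. Slit2 ranged from 3.94 CPM in GFP to 13.2 CPM in WC, and Slit3 from 4.45 CPM in MyoD to 16.6 CPM in chimera, and neither met the size rule in any pair.

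Promoter windows of genes that stood far apart between libraries are shown for Reln and Plxna2, the 2 guidance genes that met the size rule in MyoD over GFP, and for Robo2, which had the largest ratios among the genes that met it in NeuroD2 over GFP and in chimera at MOI 100 over GFP. Robo3 and Sema3c are shown because a motif was found in them, and so were chosen after the motifs were seen. Each window runs from 250 bases before to 50 bases after an annotated start site, from RefSeq on build GRCm38.p6, written 5′ to 3′ on the gene's strand. Capitals mark 3 E-box words searched for on both strands. They are CAGCTG, read alike on both strands, then CAGATG with its reverse complement, and also the word CAGGTG with its own. The Robo2 window is the third of 3 annotated starts. The first 2 held none of the motifs and are not shown, so the choice of this window was also made with the motifs known. Plxna4 is named only.
Reln, chr5:22344656-22344955, minus strand: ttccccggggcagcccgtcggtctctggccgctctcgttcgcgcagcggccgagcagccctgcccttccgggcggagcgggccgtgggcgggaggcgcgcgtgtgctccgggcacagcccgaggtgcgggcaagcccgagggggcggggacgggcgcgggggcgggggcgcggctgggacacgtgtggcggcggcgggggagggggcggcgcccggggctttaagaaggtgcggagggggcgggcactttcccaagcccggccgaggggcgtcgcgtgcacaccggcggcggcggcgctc
Plxna2, chr1:194619579-194619878, plus strand: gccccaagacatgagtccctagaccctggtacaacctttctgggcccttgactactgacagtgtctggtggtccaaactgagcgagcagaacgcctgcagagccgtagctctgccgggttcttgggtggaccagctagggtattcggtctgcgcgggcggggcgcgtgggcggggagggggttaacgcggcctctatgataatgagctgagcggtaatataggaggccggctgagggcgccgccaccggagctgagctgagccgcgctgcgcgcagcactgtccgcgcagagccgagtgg
Robo2, chr16:74411776-74412075, minus strand: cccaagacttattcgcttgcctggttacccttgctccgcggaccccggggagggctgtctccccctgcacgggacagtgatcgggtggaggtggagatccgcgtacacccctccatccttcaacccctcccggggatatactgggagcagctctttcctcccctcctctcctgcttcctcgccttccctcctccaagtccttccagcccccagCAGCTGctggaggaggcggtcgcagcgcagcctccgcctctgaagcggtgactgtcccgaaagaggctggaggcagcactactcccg
Robo3, chr9:37433126-37433425, minus strand: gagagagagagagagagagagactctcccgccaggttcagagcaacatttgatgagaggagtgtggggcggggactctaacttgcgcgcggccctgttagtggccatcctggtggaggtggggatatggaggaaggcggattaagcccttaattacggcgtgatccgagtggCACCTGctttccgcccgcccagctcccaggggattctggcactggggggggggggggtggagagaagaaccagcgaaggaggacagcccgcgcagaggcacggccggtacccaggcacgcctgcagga
Sema3c, chr5:17574566-17574865, plus strand: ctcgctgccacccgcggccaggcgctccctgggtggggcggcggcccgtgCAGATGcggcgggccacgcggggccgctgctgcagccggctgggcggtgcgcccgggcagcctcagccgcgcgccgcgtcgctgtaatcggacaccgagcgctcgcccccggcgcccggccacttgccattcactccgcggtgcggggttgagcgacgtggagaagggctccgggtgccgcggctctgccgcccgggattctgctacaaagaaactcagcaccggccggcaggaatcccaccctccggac

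None of the words searched can overlap another. Of the 44 genes, 35 had a window, 40 windows in all. CAGGTG was found in 8 of the 40 windows (20.0%), against 20.2% of 32851 promoter windows of the same length. CAGATG was found in 1 of 40 (2.50%), against 17.2% of all windows, and CAGCTG in 2 of 40 (5.00%), against 16.3%. The median GC content of the guidance gene windows was 66.8%, against 52.7% over all windows. No windows beyond these 300 bases were searched, and a match is a run of letters, not a binding site.

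Among netrin receptors, Dcc and Unc5c were higher in the 6 libraries other than MyoD and GFP than in these 2, and Unc5a and Unc5b were highest in GFP. Dcc (ENSMUSG00000060534), the attractive netrin receptor, had 0 CPM in MyoD, 4.37 CPM in NeuroD2, 8.43 CPM in WCS at MOI 100, 1.32 CPM in WCS, 1.32 CPM in WC, 2.05 CPM in chimera at MOI 100, 0.527 CPM in chimera and 0.073 CPM in GFP. Its level passed 5 CPM only in WCS at MOI 100, and the GFP library held 3 counts. The Dcc ratio of WCS at MOI 100 to GFP was 116-fold (39.1 to 564). Unc5c (ENSMUSG00000059921), a repulsive netrin receptor, had 0.422 CPM in MyoD, 7.44 CPM in NeuroD2, 5.39 CPM in WCS at MOI 100, 4.08 CPM in WCS, 4.33 CPM in WC, 3.51 CPM in chimera at MOI 100, 5.43 CPM in chimera and 1.09 CPM in GFP. MyoD and GFP were the 2 lowest, and the ratio of NeuroD2 to GFP was 6.8-fold (4.91 to 9.6). Unc5b (ENSMUSG00000020099), of the same family and also known from blood vessels, had 53.3 CPM in MyoD, 26 CPM in NeuroD2, 17 CPM in WCS at MOI 100, 26.6 CPM in WCS, 26.2 CPM in WC, 11.8 CPM in chimera at MOI 100, 22.1 CPM in chimera and 112 CPM in GFP. Every other library lay under GFP. Unc5b was 4.32-fold (4.0 to 4.68) lower in NeuroD2 than in GFP and 9.54-fold (8.54 to 10.7) lower in chimera at MOI 100 than in GFP. Unc5a (ENSMUSG00000025876) had 19.2 CPM in MyoD, 16.4 CPM in NeuroD2, 15.2 CPM in WCS at MOI 100, 19.5 CPM in WCS, 18.7 CPM in WC, 10.8 CPM in chimera at MOI 100, 18.1 CPM in chimera and 46.9 CPM in GFP. It was lowest in chimera at MOI 100, where it was 4.33-fold (3.84 to 4.9) lower than in GFP. Unc5d was at or under 1.22 CPM in every library. Neo1, a relative of Dcc that also binds repulsive guidance molecules, ranged from 101 CPM in GFP to 267 CPM in chimera at MOI 100. Per kilobase of exon, Neo1 was the highest of the 6 netrin receptors in every library but GFP, where it stood at 11.6 CPM per kilobase and Unc5b at 17.9.

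Both netrins were higher in the 6 libraries other than MyoD and GFP than in these 2. Ntn1 (ENSMUSG00000020902), the main secreted netrin, had 20.1 CPM in MyoD, 109 CPM in NeuroD2, 104 CPM in WCS at MOI 100, 172 CPM in WCS, 146 CPM in WC, 46.7 CPM in chimera at MOI 100, 66.2 CPM in chimera and 10.9 CPM in GFP. WCS and WC were the 2 highest, and GFP the lowest. Ntn1 was 9.98-fold (9.04 to 11) higher in NeuroD2 than in GFP and 15.7-fold (14.3 to 17.3) higher in WCS than in GFP. Ntn4 (ENSMUSG00000020019), which also binds laminins, had 2.0 CPM in MyoD, 15.5 CPM in NeuroD2, 15.9 CPM in WCS at MOI 100, 19.4 CPM in WCS, 17.5 CPM in WC, 7.46 CPM in chimera at MOI 100, 7.08 CPM in chimera and 3.67 CPM in GFP. It was lowest in MyoD, where it was 7.79-fold (5.83 to 10.6) lower than in NeuroD2.

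**Figure D2:**
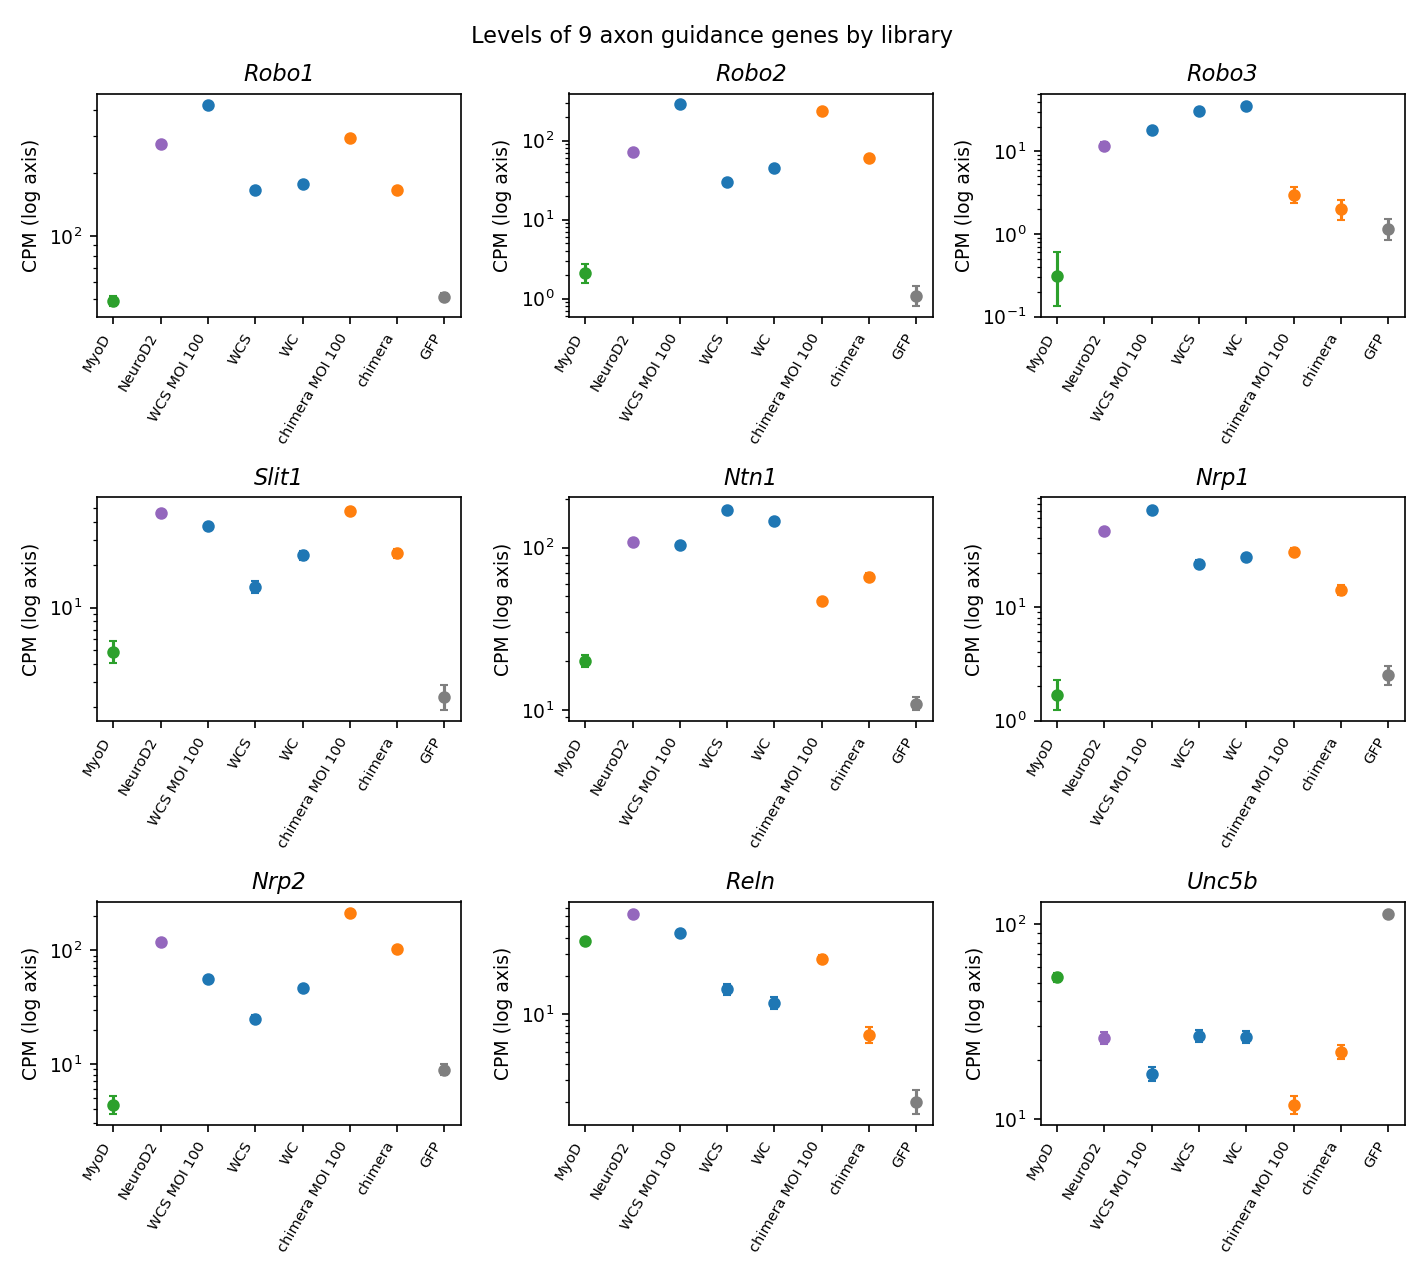
Levels in CPM, on a log axis, of 9 guidance genes, 1 point per library and 1 panel per gene, with MyoD at the left and GFP at the right. Bars are exact Poisson 95% intervals, for counting error only. Robo3 is highest in WC at 35.7 CPM and WCS at 31.0 CPM, whereas Nrp2 is highest in chimera at MOI 100 at 215 CPM.

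The semaphorin receptors were split by member. Nrp1, Nrp2 and Plxna4 were low in MyoD and GFP, and Plxna2 was highest in MyoD. Nrp1 (ENSMUSG00000025810), the coreceptor best known for Sema3a, had 1.69 CPM in MyoD, 46.4 CPM in NeuroD2, 71.6 CPM in WCS at MOI 100, 23.8 CPM in WCS, 27.2 CPM in WC, 30.6 CPM in chimera at MOI 100, 14 CPM in chimera and 2.5 CPM in GFP. WCS at MOI 100 and NeuroD2 were the 2 highest, and MyoD was lowest. The ratio of NeuroD2 to GFP was 18.5-fold (15.2 to 22.9), and MyoD was 27.5-fold (20.4 to 38) lower than NeuroD2. Nrp2 (ENSMUSG00000025969), the coreceptor best known for Sema3f, had 4.34 CPM in MyoD, 118 CPM in NeuroD2, 55.7 CPM in WCS at MOI 100, 25 CPM in WCS, 46.8 CPM in WC, 215 CPM in chimera at MOI 100, 104 CPM in chimera and 8.9 CPM in GFP. Here the chimera libraries stood above the WCS and WC libraries, the opposite of Robo3. Nrp2 was 24.1-fold (21.7 to 26.9) higher in chimera at MOI 100 than in GFP, and 4.17-fold (3.84 to 4.53) lower in WCS than in chimera. Plxna4 (ENSMUSG00000029765), a signalling partner of neuropilins, had 0.269 CPM in MyoD, 8.56 CPM in NeuroD2, 5.48 CPM in WCS at MOI 100, 1.83 CPM in WCS, 2.66 CPM in WC, 11.9 CPM in chimera at MOI 100, 3.47 CPM in chimera and 0.219 CPM in GFP. The MyoD and GFP libraries were under 0.3 CPM, and chimera at MOI 100 was highest. The ratio of chimera at MOI 100 to GFP was 54.2-fold (28.2 to 119.6). Plxna2 (ENSMUSG00000026640), which also binds class 6 semaphorins, had 156 CPM in MyoD, 52.7 CPM in NeuroD2, 82.2 CPM in WCS at MOI 100, 65.9 CPM in WCS, 65.8 CPM in WC, 134 CPM in chimera at MOI 100, 79.6 CPM in chimera and 24.6 CPM in GFP. Plxna2 was 6.34-fold (5.92 to 6.8) higher in MyoD than in GFP and 5.44-fold (5.07 to 5.84) higher in chimera at MOI 100 than in GFP. Plxnc1 (ENSMUSG00000074785), the Sema7a receptor, had 7.18 CPM in MyoD, 38.2 CPM in NeuroD2, 43.1 CPM in WCS at MOI 100, 39.7 CPM in WCS, 42.1 CPM in WC, 19.9 CPM in chimera at MOI 100, 23.6 CPM in chimera and 13.1 CPM in GFP. It was lowest in MyoD, where it was 5.32-fold (4.55 to 6.24) lower than in NeuroD2. Plxna1 ranged from 108 CPM in GFP to 327 CPM in MyoD. Plxna3, Plxnb1 and Plxnd1, the last a receptor for Sema3e, stayed between 28.0 and 103 CPM in all libraries, and none of these 4 met the size rule.

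Among the semaphorins, Sema3d was lowest in MyoD and Sema3e highest in GFP. Sema3d (ENSMUSG00000040254), a secreted class 3 ligand, had 1.42 CPM in MyoD, 28.4 CPM in NeuroD2, 44.8 CPM in WCS at MOI 100, 15.4 CPM in WCS, 11.2 CPM in WC, 6.73 CPM in chimera at MOI 100, 2.71 CPM in chimera and 2.75 CPM in GFP. WCS at MOI 100 was highest, and chimera without an MOI label did not stand above GFP. Sema3d was 10.3-fold (8.47 to 12.7) higher in NeuroD2 than in GFP. It was 5.67-fold (4.42 to 7.38) higher in WCS than in chimera and 6.66-fold (5.73 to 7.78) higher for the same pair at MOI 100. Sema3e (ENSMUSG00000063531), the ligand of Plxnd1, had 12.4 CPM in MyoD, 9.57 CPM in NeuroD2, 24.4 CPM in WCS at MOI 100, 5.37 CPM in WCS, 5.55 CPM in WC, 18.4 CPM in chimera at MOI 100, 10.1 CPM in chimera and 50.1 CPM in GFP. GFP was the highest library, and WCS at MOI 100 was 4.55-fold (3.83 to 5.44) higher than WCS. Sema3e was 5.24-fold (4.61 to 5.96) lower in NeuroD2 than in GFP and 9.34-fold (7.94 to 11.1) lower in WCS than in GFP. Sema3c (ENSMUSG00000028780), another secreted class 3 ligand, had 91.1 CPM in MyoD, 48.6 CPM in NeuroD2, 45.9 CPM in WCS at MOI 100, 15.5 CPM in WCS, 24.5 CPM in WC, 102 CPM in chimera at MOI 100, 72 CPM in chimera and 54.7 CPM in GFP. WCS and WC were the 2 lowest, and WCS was 4.66-fold (4.21 to 5.17) lower than chimera. Sema3a, the classic growth cone collapsing ligand, had 26.4 CPM in MyoD, 12.7 CPM in NeuroD2, 13.6 CPM in WCS at MOI 100, 16.7 CPM in WCS, 14.6 CPM in WC, 32.4 CPM in chimera at MOI 100, 46.5 CPM in chimera and 13.6 CPM in GFP. The chimera libraries were the 2 highest, and no pair met the size rule. Sema3f, the usual Nrp2 ligand, ranged from 9.48 CPM in MyoD to 54.8 CPM in WCS at MOI 100. Of the transmembrane class 6 genes, Sema6a ranged from 38.8 CPM in GFP to 152 CPM in WCS at MOI 100 and Sema6d from 24.7 CPM in GFP to 56.5 CPM in chimera at MOI 100.

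The Eph receptors differed by member, with Ephb2 lowest in GFP and MyoD and Ephb3 highest in MyoD. Ephb2 (ENSMUSG00000028664), a receptor for ephrin-B ligands, had 37.1 CPM in MyoD, 204 CPM in NeuroD2, 185 CPM in WCS at MOI 100, 167 CPM in WCS, 144 CPM in WC, 203 CPM in chimera at MOI 100, 103 CPM in chimera and 44.1 CPM in GFP. MyoD and GFP were the 2 lowest, and the ratio of NeuroD2 to GFP was 4.63-fold (4.39 to 4.88). Ephb3 (ENSMUSG00000005958), of the same class, had 118 CPM in MyoD, 21.8 CPM in NeuroD2, 15 CPM in WCS at MOI 100, 29.5 CPM in WCS, 39.6 CPM in WC, 57.6 CPM in chimera at MOI 100, 82.7 CPM in chimera and 72.1 CPM in GFP. MyoD was highest, 5.42-fold (4.97 to 5.91) above NeuroD2, and WCS at MOI 100 was 4.82-fold (4.37 to 5.32) lower than GFP. Ephb1 (ENSMUSG00000032537) had 91.2 CPM in MyoD, 45 CPM in NeuroD2, 52.7 CPM in WCS at MOI 100, 96.2 CPM in WCS, 106 CPM in WC, 35.5 CPM in chimera at MOI 100, 70.5 CPM in chimera and 23.9 CPM in GFP. GFP was lowest, and both MOI 100 libraries were lower than their partners. The Ephb1 ratio of WC to GFP was 4.46-fold (4.15 to 4.79). Epha5 (ENSMUSG00000029245), a receptor for ephrin-A ligands, had 0.576 CPM in MyoD, 1.29 CPM in NeuroD2, 8.02 CPM in WCS at MOI 100, 2.58 CPM in WCS, 0.995 CPM in WC, 2.46 CPM in chimera at MOI 100, 0.377 CPM in chimera and 0.389 CPM in GFP. It passed 5 CPM only in WCS at MOI 100, where the ratio to GFP was 20.6-fold (12.5 to 36.6). Epha3 was at or under 3.70 CPM in every library, Epha4 ranged from 66.8 CPM in GFP to 134 CPM in WC, and Epha7 from 14.0 CPM in chimera at MOI 100 to 36.9 CPM in chimera. Of the 5 ephrins, Efnb3 (ENSMUSG00000003934) alone met the rule, and only in MyoD over NeuroD2. It had 4.91 CPM in MyoD, 29.2 CPM in NeuroD2, 32.1 CPM in WCS at MOI 100, 38.4 CPM in WCS, 28.4 CPM in WC, 14.1 CPM in chimera at MOI 100, 16.1 CPM in chimera and 15.3 CPM in GFP. MyoD was the lowest library, 5.95-fold (4.93 to 7.22) lower than NeuroD2. Efnb1 ranged from 79.1 CPM in WCS at MOI 100 to 232 CPM in WC. Efna2, Efna5 and Efnb2 stayed between 15.1 and 132 CPM.

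Reln (ENSMUSG00000042453), the secreted ligand reelin, had 37.9 CPM in MyoD, 62.2 CPM in NeuroD2, 44.2 CPM in WCS at MOI 100, 15.7 CPM in WCS, 12.2 CPM in WC, 27.3 CPM in chimera at MOI 100, 6.82 CPM in chimera and 1.99 CPM in GFP. GFP was the lowest library and NeuroD2 the highest. Reln was 19-fold (15.2 to 24.1) higher in MyoD than in GFP and 31.2-fold (25 to 39.4) higher in NeuroD2 than in GFP. Both MOI 100 libraries stood above their partners. Dab1, the adaptor that relays the reelin signal, ranged from 40.8 CPM in GFP to 108 CPM in WCS at MOI 100.

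Against GFP, 5 to 13 guidance genes were at least 4-fold higher in the 6 libraries other than MyoD, and 2 in MyoD, Plxna2 and Reln. All 7 comparisons share the GFP library. In MyoD over GFP, 2 of 44 genes (4.55%) were higher and 0 lower, where 2.75% of the 15547 measured genes were higher and 0.92% lower. The median log2 ratio was -0.06 over the 44 genes and -0.03 over all measured genes. In NeuroD2 over GFP, 12 genes were higher (27.3%) and 2 lower (4.55%), where 4.37% of all were higher and 1.6% lower, with a median log2 ratio of 1.04 over the 44. By role, all 3 Robo receptors and both neuropilins were among the 12, but 0 of the 5 ephrins, and the 2 lower genes were Unc5b and Sema3e. Rn7s6 moved with this comparison, at 0.594 CPM in NeuroD2 and 16.3 CPM in GFP, and was likewise low in chimera and both MOI 100 libraries, but was at 14.4 CPM in WCS and 12.998 CPM in WC. In WCS at MOI 100 over GFP, 13 were higher and 2 lower, where 5.47% of all were higher and 3% lower, and the median was 1.35. WCS over GFP had 8 higher and 2 lower, where 2.54% were higher and 0.9% lower, with a median of 1.01. WC over GFP had 9 higher and 2 lower, where 2.57% were higher and 0.605% lower, with a median of 0.93. Chimera at MOI 100 over GFP had 10 higher and 2 lower, where 5.4% were higher and 2.51% lower, with a median of 1.12. Chimera over GFP had 5 higher and 2 lower, where 2.17% were higher and 0.72% lower, with a median of 0.63. The median over all measured genes was 0.03 in NeuroD2 over GFP and 0.01 in WCS at MOI 100 over GFP. Robo2, Slit1, Ntn1 and Nrp1 were among the higher genes in each of the 6 libraries other than MyoD, and Unc5b was lower in all 6. Some of these calls lay near 4-fold, which is 2 on the log2 scale. With library totals in place of TMM, Unc5b had log2 ratios of -1.94 in NeuroD2 over GFP, -1.97 in WCS over GFP and -1.99 in WC over GFP, all short of 4-fold, and Unc5a had -1.94 in chimera at MOI 100 over GFP. With a pseudocount of 2 CPM, Slit1 in WCS over GFP (1.88), Ntn1 in chimera at MOI 100 over GFP (1.91) and Nrp1 in chimera over GFP (1.83) no longer met the rule. Nor did Unc5c in NeuroD2 over GFP (1.61), Plxna4 in WCS at MOI 100 over GFP (1.75) and Unc5b in WCS over GFP (-1.998). Ntn4 also fell short with this pseudocount, in WCS and in WC over GFP. Sema3d in WCS over GFP, Reln in WC over GFP and Unc5a in chimera at MOI 100 over GFP fell short too.

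In MyoD over NeuroD2, 1 gene was higher and 14 lower (31.8%), where 2.64% of all genes were higher and 4.41% lower, and the median log2 ratio was -0.80 over the 44 genes and -0.01 over all. The 14 were Robo1, Robo2, Robo3, Slit1, Unc5c, Ntn1, Ntn4, Plxna4, Plxnc1, Nrp1, Nrp2, Sema3d, Ephb2 and Efnb3, and the higher gene was Ephb3. Rn7s6 was at 13.5 CPM in MyoD and 0.594 CPM in NeuroD2, and its part was not tested. Robo3 was 37.4-fold (18.8 to 87.4) lower and Nrp2 27.1-fold (22.5 to 33) lower.

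**Figure D3:**
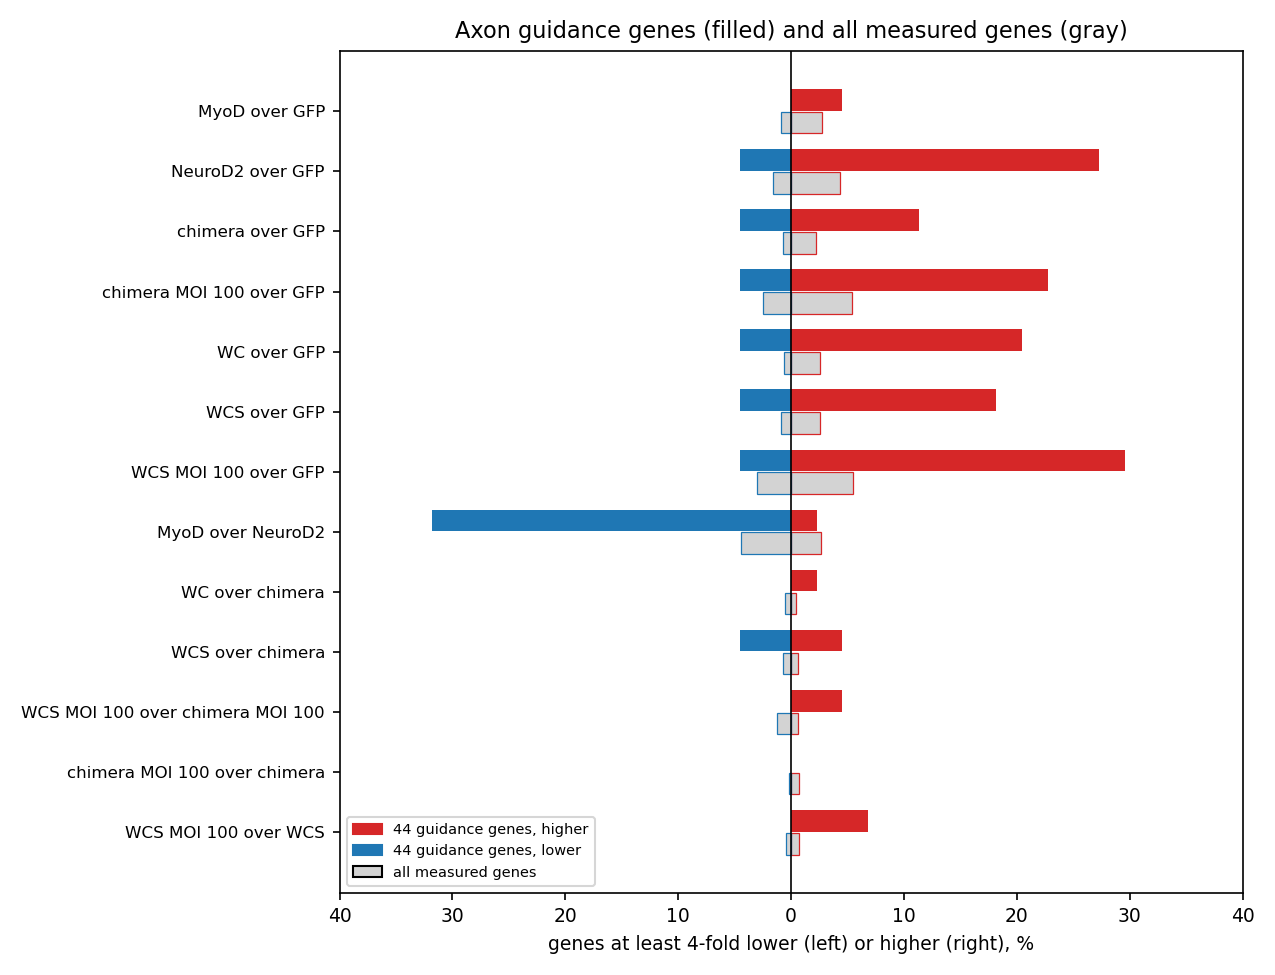
Share, in percent, of the 44 guidance genes and of all 15547 measured genes that met the size rule in each comparison, split into higher and lower. The guidance genes reach 29.5% higher in WCS at MOI 100 over GFP, where all genes reach 5.47%.

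Between constructs, single-library pairs moved few guidance genes past 4-fold. In WCS at MOI 100 over chimera at MOI 100, 2 genes were higher, Robo3 and Sema3d, and 0 lower, where 0.585% of all genes were higher and 1.22% lower. In WCS over chimera, Robo3 and Sema3d were higher and Nrp2 and Sema3c lower, where 0.592% were higher and 0.753% lower. In WC over chimera, Robo3 alone was higher and 0 were lower, where 0.47% were higher and 0.566% lower. The last 2 pairs share the chimera library. With a pseudocount of 2 CPM the log2 ratios of Sema3d (1.88) and Nrp2 (-1.98) in WCS over chimera, and of Robo3 (1.999) at MOI 100, no longer reached 4-fold.

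A test of construct was possible because chimera and WCS were crossed with the MOI label. An edgeR quasi-likelihood test on 4 libraries, with construct and MOI label as terms, compared WCS with chimera over 16079 genes, with Benjamini-Hochberg adjustment over all of them. The fit has 1 residual degree of freedom, so the spread is shared across genes, and the second culture of a construct differs in MOI label. That residual is how far the construct difference changed with the MOI label, not a spread between replicate cultures. Of the 44 guidance genes, 14 rose in WCS (31.8%) and 5 fell (11.4%), where 5.84% of all tested genes rose and 5.49% fell. When any 1 of the 4 libraries was left out, with the MOI term dropped, edgeR called 0 of the 44, and 13 to 15 had an unadjusted p under 0.05. Over all genes these reduced fits called 103 without chimera, 52 without chimera at MOI 100, and 0 without WCS or without WCS at MOI 100, of 16551 to 16787 tested, and 1003 to 1317 had an unadjusted p under 0.05. DESeq2 on all 4 libraries called 16 of the 44 and 1649 of 16218 genes. In those reduced fits the direction turned for Ephb1 without WCS, for Plxna4 without chimera at MOI 100 and for Reln without WCS at MOI 100.

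Robo3 rose the most, with a log2 fold change of 3.25 (adjusted p = 0.0016) and log2 ratios of 2.40 at MOI 100 and 3.66 without an MOI label. Sema3d followed, with a log2 fold change of 2.63 (adjusted p = 0.00045) and log2 ratios of 2.65 at MOI 100 and 2.31 without an MOI label. Ntn1 rose with a log2 fold change of 1.26 (adjusted p = 0.00099) and log2 ratios of 1.14 at MOI 100 and 1.37 without an MOI label, and Efnb3 with a log2 fold change of 1.22 (adjusted p = 0.0032). Nrp1 rose with a log2 fold change of 1.01 (adjusted p = 0.01) and log2 ratios of 1.21 at MOI 100 and 0.74 without an MOI label. The other 9 that rose were Epha5, Dcc, Ntn4, Sema3f, Reln, Plxnc1, Dab1, Ephb1 and Plxnb1, with log2 fold changes of 0.48 for Plxnb1 to 2.102 for Epha5. Some changes moved when 1 library was left out. Those fits drop the MOI term, so they mix construct with MOI label and do not show that 1 library carried a change. In the pair without an MOI label, log2 ratios were 0.74 for Nrp1, 0.83 for Dcc, 1.81 for Epha5 and 2.31 for Sema3d. They were 0.42 for Dab1 and 0.46 for Plxnb1. Without WCS at MOI 100 the log2 fold change was 0.10 for Nrp1, 0.049 for Dcc, 0.87 for Epha5, 0.19 for Dab1, 0.26 for Plxnb1 and 1.71 for Sema3d. Without chimera at MOI 100 it was 1.78 for Nrp1, 3.22 for Dcc, 3.82 for Epha5 and 3.49 for Sema3d, while Robo3 ran from 2.86 without WCS to 3.64 without WCS at MOI 100.

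Nrp2 fell the furthest, with a log2 fold change of -1.998 (adjusted p = 0.00029) and log2 ratios of -1.94 at MOI 100 and -2.04 without an MOI label. Ephb3 fell with a log2 fold change of -1.71 (adjusted p = 0.00093) and log2 ratios of -1.91 at MOI 100 and -1.47 without an MOI label. The class 3 ligands Sema3c and Sema3a fell, Sema3c with a log2 fold change of -1.67 (adjusted p = 0.0067) and Sema3a with a log2 fold change of -1.36 (adjusted p = 0.0025). Of the other class 3 ligands among the guidance genes, Sema3d and Sema3f rose and Sema3e was not called. Plxna4 fell with a log2 fold change of -1.02 (adjusted p = 0.045). Nrp2 ran from -2.66 without WCS at MOI 100 to -1.35 without chimera at MOI 100, Ephb3 from -2.22 without WCS to -1.25 without WCS at MOI 100, and Sema3c from -2.48 without WCS at MOI 100 to -0.91 without WCS. The neuropilins thus went opposite ways, with Nrp1 higher and Nrp2 lower in WCS at both MOI labels. Over the 44 genes, 30 had the same sign of ratio in both pairs, with Pearson's r = 0.81 and a Spearman rank correlation of 0.70 across genes. Genes are not independent replicates, and the pairs share no library. Sign agreement and correlation were not computed over all genes.

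Values of other genes moved with the construct. The muscle marker sums were 17.9 in WCS at MOI 100 against 1529 in chimera at MOI 100, and 31.3 in WCS against 939 in chimera. The neuron marker sums were 4373 in WCS at MOI 100 against 2342 in chimera at MOI 100, and 1898 in WCS against 695 in chimera. The small RNA gene Rn7s6 was at 14.4 CPM in WCS and 0.565 CPM in chimera, but at 1.28 CPM in WCS at MOI 100 and 1.21 CPM in chimera at MOI 100. The part of the marker genes and of Rn7s6 in these calls was not tested.

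**Figure D4:**
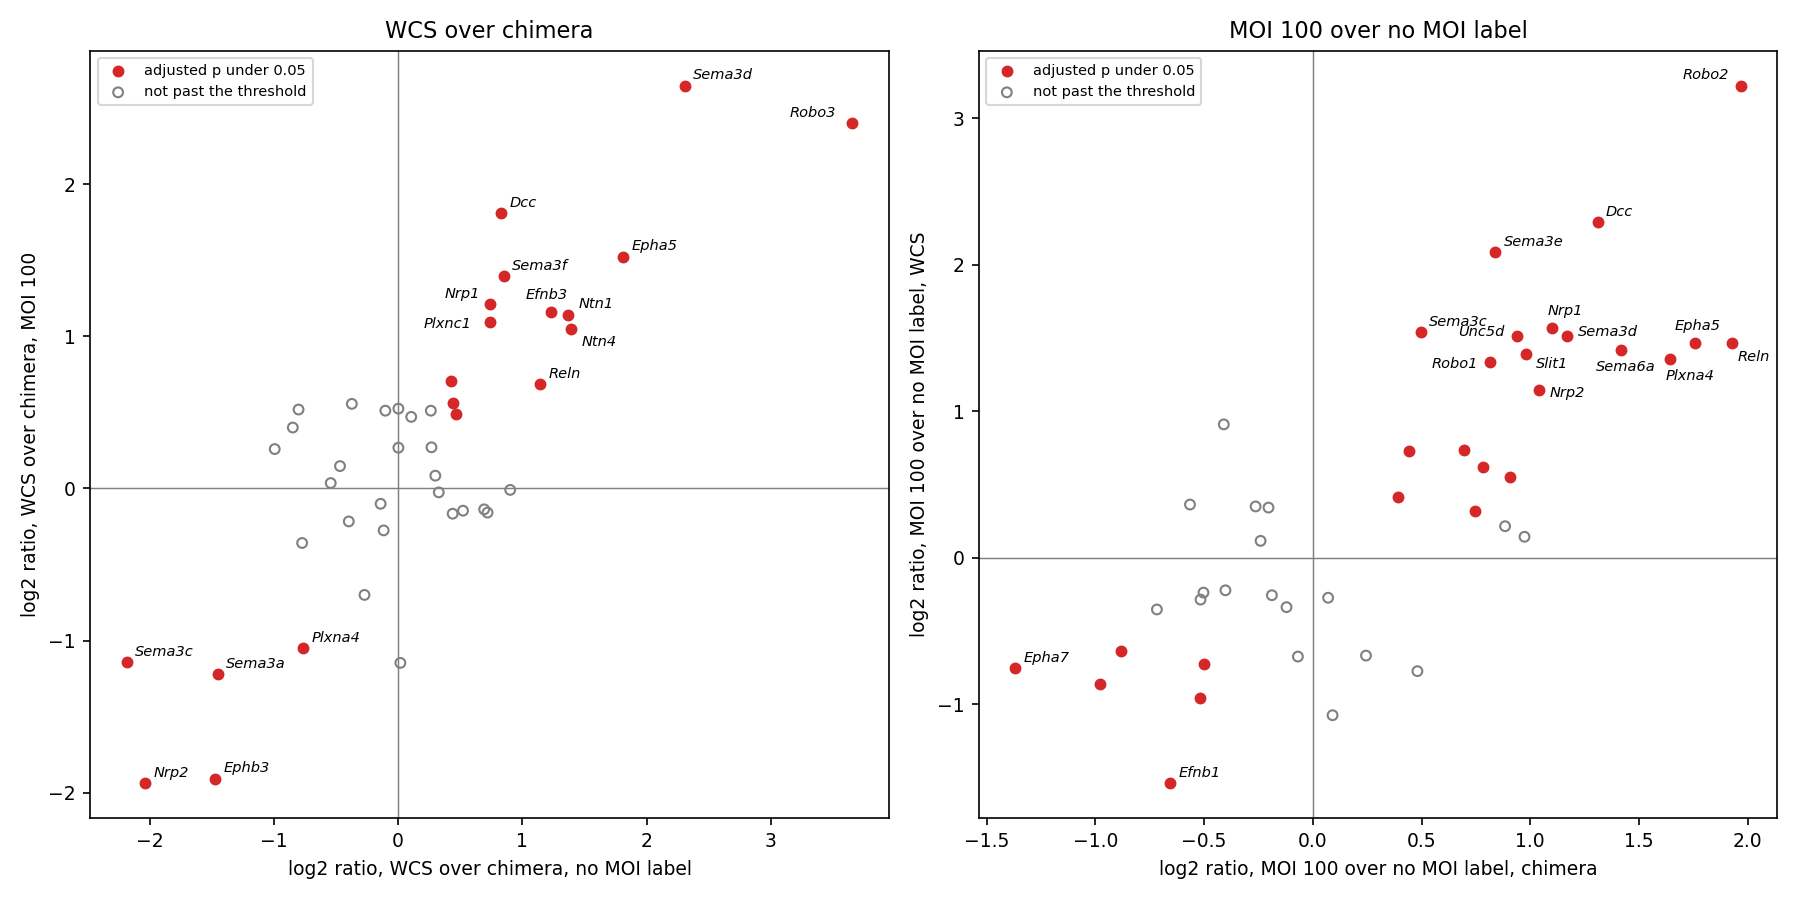
Each point is 1 of the 44 guidance genes, with the log2 ratio of CPM + 0.5 in 1 pair of libraries on each axis. At the left WCS over chimera is drawn without an MOI label (horizontal) and at MOI 100 (vertical), and at the right MOI 100 over no label is drawn for chimera (horizontal) and WCS (vertical). Filled points passed the 4-library test, and Robo3 and Sema3d lie at the upper right of the left panel with Nrp2 and Ephb3 at the lower left.

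The same fit compared libraries at MOI 100 with those without an MOI label. Of the 44 genes, 20 rose (45.5%) and 6 fell (13.6%), where 13.4% of all tested genes rose and 12.2% fell. The share that fell was near that of all genes. Without 1 of the 4 libraries and with the construct term dropped, edgeR called 0 of the 44, and 13 to 14 had an unadjusted p under 0.05. Over all genes the reduced fits called 0, and 1697 to 2771 had an unadjusted p under 0.05. DESeq2 called 25 of the 44 and 3160 of 14851 genes. The direction turned in the reduced fits for Ephb3, Nrp2, Ntn1 and Sema3d, each without 1 or 2 of the libraries. Myod1, Neurod2 and the neuron marker sums were higher at MOI 100 in both constructs. Embryonal carcinoma marker sums were 426 in WCS at MOI 100 against 1064 in WCS, and 391 in chimera at MOI 100 against 885 in chimera. Muscle marker sums were 1529 in chimera at MOI 100 against 939 in chimera, but 17.9 in WCS at MOI 100 against 31.3 in WCS. Rn7s6 was at 1.28 CPM in WCS at MOI 100 against 14.4 CPM in WCS, and at 1.21 CPM in chimera at MOI 100 against 0.565 CPM in chimera. The part of these genes in the calls was not tested.

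Robo2 rose the most at MOI 100, with a log2 fold change of 2.60 (adjusted p = 0.002) and log2 ratios of 3.22 in WCS and 1.97 in chimera. Dcc rose with a log2 fold change of 2.38 (adjusted p = 0.0053) and log2 ratios of 2.29 in WCS and 1.31 in chimera, and Unc5d with a log2 fold change of 2.38 (adjusted p = 0.025) at levels of 1.22 CPM or less. Reln rose with a log2 fold change of 1.74 (adjusted p = 0.0017) and log2 ratios of 1.47 in WCS and 1.93 in chimera. Sema6a, a transmembrane ligand that also acts as a receptor, rose with a log2 fold change of 1.42 (adjusted p = 0.00093) and log2 ratios of 1.42 in WCS and 1.42 in chimera. Both neuropilins rose, Nrp1 with a log2 fold change of 1.36 (adjusted p = 0.0028) and Nrp2 with a log2 fold change of 1.10 (adjusted p = 0.0016). The other 13 that rose were Epha5, Plxna4, Sema3e, Sema3d, Slit1, Robo1, Sema3c, Plxna3, Neo1, Plxna1, Dab1, Plxna2 and Plxnb1. With 1 library left out, Robo2 ran from 2.097 without WCS to 3.12 without chimera, Dcc from 1.12 without WCS at MOI 100 to 3.29 without WCS, and Reln from 1.20 without chimera to 2.38 without WCS. Nrp1 was at 0.67 without WCS at MOI 100, Unc5d at 3.51 without chimera, Epha5 at 0.71 without WCS at MOI 100 and Sema3c at 0.014 without WCS.

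The 6 genes that fell at MOI 100 were Efnb1, Epha7, Ephb1, Unc5b, Ephb3 and Ntn1. Efnb1 fell with a log2 fold change of -1.10 (adjusted p = 0.0091) and log2 ratios of -1.54 in WCS and -0.66 in chimera, and Ntn1 with a log2 fold change of -0.62 (adjusted p = 0.01). In single pairs at the size rule, WCS at MOI 100 over WCS had 3 higher genes, Robo2, Dcc and Sema3e, and 0 lower, where 0.714% of all genes were higher and 0.463% lower. With a pseudocount of 2 CPM, Dcc (log2 ratio 1.65) and Sema3e (1.84) no longer met the rule. Chimera at MOI 100 over chimera had 0 higher and 0 lower, where 0.727% were higher and 0.199% lower. Ratios of the 44 genes had the same sign in both constructs for 35 genes, with r = 0.79 and a rank correlation of 0.78 across genes. These pairs again share no library, and all genes were again not computed.

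Other genes of the same pathways were taken from 3 lists: further guidance ligands, further receptors, and effectors that carry the signal to the cytoskeleton. In the test of WCS over chimera, 10 of 28 tested ligands rose and 2 fell, 9 of 30 receptors rose and 8 fell, and 15 of 56 effectors rose and 3 fell, where 5.84% of all genes rose and 5.49% fell. In the test of MOI label, 9 ligands rose and 0 fell, 13 receptors rose and 4 fell, and 18 effectors rose and 2 fell, where 13.4% of all rose and 12.2% fell. In NeuroD2 over GFP, 3 of 28 measured ligands were higher and 1 lower by the size rule, 10 of 30 receptors were higher and 0 lower, and 6 of 55 effectors were higher and 0 lower, where 4.37% of all genes were higher and 1.6% lower. In MyoD over GFP, 2 ligands, 2 receptors and 3 effectors were higher, and 1 of each was lower, where 2.75% of all were higher and 0.92% lower. Among ligands in NeuroD2 over GFP, Draxin, a repulsive ligand that binds Dcc, had 26.6 CPM in NeuroD2 and 0.608 CPM in GFP, a ratio of 43.8-fold (29.4 to 68.1). Sema7a, the ligand of Plxnc1, was 6.79-fold (5.54 to 8.39) higher and Flrt3 4.22-fold (3.71 to 4.82) higher, while Sema3b, a secreted class 3 ligand, was 15.4-fold (10.2 to 24.5) lower. Among receptors, the immunoglobulin family members Dscam and Dscaml1 had ratios of 58.3-fold (33.8 to 110.3) and 49.9-fold (27.6 to 101) in NeuroD2 over GFP, and L1cam, an axonal adhesion molecule, of 28.7-fold (24.3 to 34.1). Among effectors, Dpysl4 and Dpysl3, relatives of the collapsin response mediator, were 11.4-fold (10.4 to 12.6) and 8.47-fold (8.14 to 8.81) higher in NeuroD2 than in GFP, and Kalrn was 10.8-fold (9.83 to 11.9) higher.

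In MyoD over GFP, the actin-binding effector Ablim3 had 241 CPM in MyoD, 1.68 CPM in NeuroD2, 14.7 CPM in chimera at MOI 100, 11.7 CPM in chimera and 0.17 CPM in GFP. It was high in the library with the highest muscle marker sum, and the part of those markers was not tested. Cdk5r1, the activator of the kinase Cdk5, was 14.9-fold (13.4 to 16.5) higher in MyoD than in GFP and Mical2, which oxidises actin, 8.6-fold (7.16 to 10.4) higher. Of the ligands, Sema6b was 7.84-fold (7.33 to 8.38) higher and Ntng2 6.07-fold (5.55 to 6.64) higher, while Efna3 was 7.2-fold (6.0 to 8.71) lower. Of the receptors, Dscaml1 was 27.8-fold (15.2 to 56.7) higher, Lrig1 4.1-fold (3.88 to 4.33) higher and Cntn1, a neuronal adhesion molecule, 6.52-fold (4.28 to 10.4) lower. Gap43, a growth cone protein, was 6.88-fold (6.17 to 7.7) lower in MyoD than in GFP.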

How the data were processed

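RNA was measured in 8 libraries of mouse P19 cells, 1 per culture, from poly(A)-primed RNA. The authors deposited 1 table of raw read counts per Ensembl gene. Tools listed per the submitters' processing notes are TopHat2 2.0.8 and CASAVA 1.8.2, with mm9 as the build. How reads were counted per gene, and whether by strand, is not given in the sources used here. Without strand, a gene and an antisense partner cannot be told apart. Per the labels' protocols RNA came from 1 of 2 extraction kits, not told per sample. Symbols came from GENCODE M21 gene names for 32850 genes (87.5%), exon lengths from the same annotation, and genes without a symbol held 1.24% to 1.53% of the counts.

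CPM were computed in edgeR 4.0.16 (R 4.3.3) with TMM scaling. Single-library pairs were compared by ratio, with no test. WCS was tested against chimera, and MOI 100 against no MOI label, in edgeR's quasi-likelihood test with both terms, a filter on low counts (filterByExpr) and Benjamini-Hochberg adjusted p under 0.05. DESeq2 1.42.0, no filter, other scalings, a pseudocount of 2 CPM and leaving out each library were alternatives. The test was checked on simulated counts with 200 genes changed between constructs by 2 on the log2 scale. It recovered 200 of them with 11 false calls at a dispersion of 0.01, and 198 with 6 false calls at 0.05. The simulated counts had no MOI effect and the same construct change at both MOI labels, so they cannot give the rate of false calls in these data. The labels do not say whether cultures were infected separately. No group had a second library at its own MOI label, so the p-values hold no spread between replicate cultures. They rest on how far the construct difference changed with the MOI label, with that spread shared across genes. The guidance genes, the other gene lists and the marker lists were chosen with earlier results of these data known. Guidance genes that met the size rule in any of 13 pairs have all 8 values in the text, as has Sema3a, added after its values were seen, and the others their range. Of each list of other pathway genes, up to 3 higher and 3 lower genes are named, those with the interval bound furthest from no change.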

Additional observations from a re-analysis of the deposited data

Results flagged for a closer look

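For 13 gene and contrast combinations the single-library ratios lay on opposite sides of 1 in 2 pairs that share no library. In each pair the counting interval left out 1 and the higher level reached 5 CPM. Robo3 and Epha3 did not reach 5 CPM in both pairs and are not among them. Robo3 at MOI 100 over no label had log2 ratios of -0.77 in WCS and 0.48 in chimera. Epha3 in WCS over chimera had log2 ratios of 0.52 at MOI 100 and -0.80 without a label. In no case was the difference itself tested, since each pair is 1 culture against 1.

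For WCS over chimera, the ratio was above 1 at MOI 100 and below 1 without an MOI label for 4 genes. Robo2 had a ratio of 1.20 at MOI 100 and 0.498 without a label. Unc5c had 1.54 at MOI 100 and 0.751 without a label. Sema3e had 1.33 at MOI 100 and 0.534 without a label. Efnb2 had 1.43 at MOI 100 and 0.931 without a label. The order was the other way for 4 genes. Sema6d had a ratio of 0.903 at MOI 100 and 1.44 without a label. Ephb2 had 0.909 at MOI 100 and 1.62 without a label. Efna2 had 0.889 at MOI 100 and 1.36 without a label. Efnb1 had 0.895 at MOI 100 and 1.65 without a label.

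For MOI 100 over no MOI label, 4 genes were above 1 in WCS and below 1 in chimera. Unc5c had a ratio of 1.32 in WCS and 0.646 in chimera. Plxnc1 had 1.08 in WCS and 0.843 in chimera. Sema3f had 1.27 in WCS and 0.865 in chimera. Efnb2 had 1.28 in WCS and 0.832 in chimera. Plxnd1 went the other way, with 0.471 in WCS and 1.07 in chimera.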

How the results depend on the processing

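The labels give no replicate numbers, so the MOI label was the only block between constructs. Guidance genes called numbered 0 for each test without the other term, with 11 (construct) and 17 (MOI label) at an unadjusted p under 0.05 in edgeR. Over all genes, each of these fits called 0 of 16079. There 1137 (construct) and 3391 (MOI label) had an unadjusted p under 0.05. The fits with 1 library left out confound the terms, by construction. Named log2 fold changes that turned sign on leaving out 1 library, given as the range over the 4 left out, ran for WCS over chimera from -0.0046 (without WCS) to 1.08 for Ephb1, from -2.05 to 0.094 (without chimera at MOI 100) for Plxna4 and from -0.11 (without WCS at MOI 100) to 2.15 for Reln. For MOI 100 over no label they ran from -1.88 to 0.30 (without chimera) for Ephb3, with 0.014 without WCS at MOI 100. They ran from -0.19 (without chimera at MOI 100) to 2.43 for Nrp2, from -1.37 to 0.17 (without WCS) for Ntn1 and from -0.45 (without WCS at MOI 100) to 3.24 for Sema3d.

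With a pseudocount of 2 CPM, which shrinks ratios of low genes, the genes higher at 4-fold numbered 1 for WCS at MOI 100 over WCS, 1 for WCS at MOI 100 over chimera at MOI 100, 5 for WCS over GFP and 1 for WCS over chimera. Those lower numbered 1 for WCS over GFP, 1 for WCS over chimera and 1 for chimera at MOI 100 over GFP. With library totals in place of TMM, those lower numbered 1 each for NeuroD2, WC, WCS and chimera at MOI 100 over GFP. Library totals moved the median of all genes by at most 0.20 on the log2 scale, in WCS at MOI 100 over GFP, and no ratio that met the size rule turned sign with library totals, DESeq2 size factors or the larger pseudocount. Over all alternatives 98 counts stayed within 1.5 times and 21 did not. Depth limits genes near the floor, such as Dcc in GFP with 3 counts.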
